A study of Mus musculus with 26 samples.

Results

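The genes described here are 10 members of the prostaglandin and lipoxygenase pathways in mouse colon, *Ptgs1*, *Ptgs2*, *Ptges*, *Ptgis*, *Hpgd*, *Ptger4*, *Alox5*, *Alox5ap*, *Alox12* and *Alox15*. The list is one of names, set by place in the pathways with no threshold on a measured value, and it was drawn up with earlier results of these data known. In each of 26 samples the estimated counts of all transcripts of a gene were added. All 10 were found among the 35975 genes summed, and all 10 were among the 17063 genes that passed the filter on low counts.

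Arachidonic acid is freed from membrane lipids by phospholipases. The cyclooxygenases, encoded by *Ptgs1* (constitutive in many tissues) and *Ptgs2* (inducible in inflammation), turn it into a short-lived endoperoxide. From this, terminal synthases make prostaglandin E2 (*Ptges*) and prostacyclin (*Ptgis*). The dehydrogenase encoded by *Hpgd* inactivates prostaglandin E2, and *Ptger4* encodes one of its receptors. Lipoxygenases oxidize the same fatty acid. *Alox5* with its helper *Alox5ap* starts leukotriene synthesis, and *Alox12* and *Alox15* encode enzymes that make other hydroxy fatty acids. In the colon, *Ptgs2* is known for its induction in inflamed tissue and tumours and *Hpgd* for its expression in mature epithelium.

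All mice were wild-type C57BL/6J males from a single vendor, about 10 weeks old at the start, on a standard diet or on one with GW3965, a synthetic agonist of the liver X receptors (LXR), nuclear receptors for oxidized cholesterol. The AOM–DSS groups received azoxymethane (AOM), a colon carcinogen, at 10 mg per kg, followed by rounds of dextran sodium sulphate (DSS) in the drinking water, which injures the colon lining. By the schedule given in the sources, day 22 came after 1 round, day 43 after 2 and day 70 after 3. By the same schedule, day 70 lay longer after the last DSS than days 22 and 43 did. The number of rounds and the time since DSS thus both differ between day 70 and the earlier days. Distal colon was sampled 22, 43 or 70 days after AOM, with 3 samples for each diet and day. The groups called day 0 received neither AOM nor DSS and had been on their diet for 22 or 43 days, with 2 samples for each, so 4 per diet. The study's reporting form describes pools of 2 to 3 animals sequenced as 1 sample, while another part of the study counts 3 to 4 mice per timepoint and the labels give each sample a single cage and no pooling, so whether a sample is 1 mouse or a pool is not settled here. One day 0 sample carries the GW3965 diet in its title and the standard diet in its diet label, and it was placed by its title. Every sample is a piece of whole tissue, so fewer cells of a type and less RNA per cell cannot be told apart. The study took RNA from the part of the distal colon that matches tumour areas. It saw no macroscopic tumours at day 22, and at day 43 tumours almost only on the standard diet. At day 70 both diets had tumours, though not to the same extent. Differences in tumour tissue therefore cannot be told apart from those of day and diet. The tissue carried its colon markers (*Epcam*, *Cdx2*, *Cdh1* and *Vil1*, summed) at 1002 to 4491 CPM (estimated counts scaled to the TMM-corrected library size) in all 26 samples.

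Total counts per sample ran from 18195345 to 41522204. RNA integrity numbers were 9.1 or higher outside day 43. At day 43 they were 2.6, 8.4 and 7.8 on the standard diet and 8, 6.8 and 9.3 on GW3965. Ribosomal protein genes, whose share of counts stands in the model for the ribosomal percentage that the study corrected for, took 5.34 to 6.51% of the counts at day 0 and 10.0 to 18.6% at day 43. These ranges do not overlap, so in a model that holds the ribosomal share, that share and day 43 cannot be told apart, and values without it are given beside the main ones. On GW3965 the share was 6.67 to 10.7% at day 22 and 3.96 to 5.45% at day 70, against 5.59 to 6.51% at day 0. These ranges did not overlap day 0 either, so the same limit holds for both days on GW3965. The standard-diet shares of these days, 6.06 to 8.87% and 4.57 to 6.66%, overlapped day 0 at 5.34 to 6.45%. Standard-diet samples of days 22 and 43 came from 1 cage, GW3965 samples of these days from another, and day 0 samples of each diet from 1 cage each, so diet and cage cannot be told apart at these days, nor day 0 and cage. At day 70 each sample came from its own cage.

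The sequence around the annotated start is shown for 3 members on which the later results turn, *Ptgs2*, *Hpgd* and *Alox12*. RefSeq promoter windows of GRCm38.p6, from 250 bases before to 50 bases from the start, were given for 7 of the 10 genes, and these are 3 of them, written 5′ to 3′ on the gene's strand with matches to any of 6 searched motifs in capitals.
Ptgs2: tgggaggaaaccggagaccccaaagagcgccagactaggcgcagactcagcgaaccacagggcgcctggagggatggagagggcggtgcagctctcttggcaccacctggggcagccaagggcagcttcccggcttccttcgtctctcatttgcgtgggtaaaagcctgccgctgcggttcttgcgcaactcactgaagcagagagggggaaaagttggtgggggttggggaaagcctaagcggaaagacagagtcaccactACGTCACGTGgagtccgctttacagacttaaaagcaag
Hpgd: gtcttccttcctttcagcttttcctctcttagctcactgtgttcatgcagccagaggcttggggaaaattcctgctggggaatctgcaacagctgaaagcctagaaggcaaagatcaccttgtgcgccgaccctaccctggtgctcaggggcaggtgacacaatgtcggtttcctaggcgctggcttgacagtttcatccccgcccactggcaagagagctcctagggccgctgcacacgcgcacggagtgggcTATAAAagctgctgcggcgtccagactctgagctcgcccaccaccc
Alox12: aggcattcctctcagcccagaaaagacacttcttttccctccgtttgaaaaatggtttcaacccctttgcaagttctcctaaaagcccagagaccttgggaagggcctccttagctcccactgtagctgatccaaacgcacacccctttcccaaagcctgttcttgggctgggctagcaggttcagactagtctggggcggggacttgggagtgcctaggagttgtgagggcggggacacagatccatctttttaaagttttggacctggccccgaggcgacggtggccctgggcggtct
The *Ptgs2* window lies at chr1:150099781-150100080 on the plus strand, the *Hpgd* window at chr8:56294302-56294601 on the plus strand and the *Alox12* window at chr11:70255321-70255620 on the minus strand. In *Ptgs2* the capitals mark TGACGT, the core of the cyclic AMP response element, on the opposite strand 12 bases past the start, which overlaps CACGTG, an E-box, 16 bases past it. In *Hpgd* they mark TATAAA, 4 bases past the RefSeq start that sets the window. The start of *Hpgd* in the annotation used for the counts, chr8:56294585, lies further along in this window, so TATAAA comes before it. On either strand, TGACGT was found in 7.51% of 32851 promoter windows of this length, CACGTG in 7.15% and TATAAA in 13.6%. The *Alox12* window held none of the 6 motifs. These also included a STAT6 element (found in 6.95% of windows, with *Ptges* among the matches) and a kappa B element (0.411%). A repeat of GGTCA with 4 bases between was searched as well (0.0457%). That string is not the LXR element, whose sites carry an A before GGTCA, so the LXR element was not searched. A match is a description of letters and not a measured binding site.

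In untreated colon on the standard diet, levels per transcript length (TPM, estimated counts scaled by length and library size) put *Hpgd* well above the others, at 111 to 221. *Ptgis* followed at 12.2 to 21.8, *Alox5ap* at 13.1 to 14.8 and *Ptgs1* at 11 to 15.3, and these 3 overlapped. *Ptger4* at 6.43 to 10.7 and *Ptges* at 5.44 to 8.03 overlapped each other and lay below. *Ptgs2* at 1.46 to 2.36, *Alox5* at 1.14 to 2.24 and *Alox15* at 1.06 to 2.32 formed the next overlapping set, and *Alox12* was lowest at 0.556 to 0.612. Over all 26 samples *Alox12* covered the widest range of CPM among the 10, from 0.634 to 134, and *Ptgs1* the narrowest, from 12.2 to 40.3.

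At day 70 on the standard diet, 7 of the 10 genes differed from day 0, beside 33.2% of all genes tested (edgeR quasi-likelihood test, Benjamini-Hochberg adjusted p below 0.05). *Ptgs2*, *Ptges*, *Alox12* and *Alox15* rose, and *Ptgs1*, *Ptgis* and *Hpgd* fell. On GW3965, 3 of the 10 were called at day 70, beside 21.8% of all genes: *Alox12* and *Alox15* rose and *Hpgd* fell. At day 22, 2 genes were called on the standard diet (*Ptgs2* higher and *Hpgd* lower), beside 7.73% of all genes, and *Hpgd* alone on GW3965 (lower), beside 12.6%. Without the ribosomal term, day 22 gave 4 (beside 9.55%) and 3 (beside 20.7%) called members, adding *Ptges* and *Alox5ap* on the standard diet and *Ptgs2* and *Alox5ap* on GW3965, and day 70 gave 7 (beside 30.3%) and 3 (beside 21.5%). Both diets were compared with their own day 0 samples, and no member was called between the diets at any day. Between day 0 and days 22, 43 and 70, the CPM of 3, 5 and 9 members did not overlap on the standard diet, beside 26.9%, 48.4% and 43.1% of all genes, and that of 5 members at each day on GW3965, beside 48.2%, 57.4% and 31.4%. The median log2 fold change of the 10 at day 70 was 0.75 on the standard diet, beside 0.03 over all genes, and 0.54 on GW3965, beside 0.10.

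Day 43 depended on the ribosomal term. With it, none of the 10 was called on the standard diet, where edgeR called 0 of all 17063 genes (0%; 4 members and 8.02% of all genes had an unadjusted p below 0.05), and *Alox12* alone was called on GW3965, beside 0.938%. Without it, 6 were called on the standard diet, beside 55.1% of all genes, and 5 on GW3965, beside 45.3%. A DESeq2 Wald test with the term called *Alox12* and *Alox5ap* on each diet, beside 1.19% of all genes on the standard diet and 3.41% on GW3965. The 5 genes called on both diets without the term were *Ptgs2*, *Ptges*, *Alox5ap* and *Alox12*, which rose, and *Hpgd*, which fell. For *Ptges* the day 43 TPM values, given with that gene, overlapped day 0 on both diets. Without the term, the share of members called at day 43 was thus close to that of all genes.

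**Figure D1:**
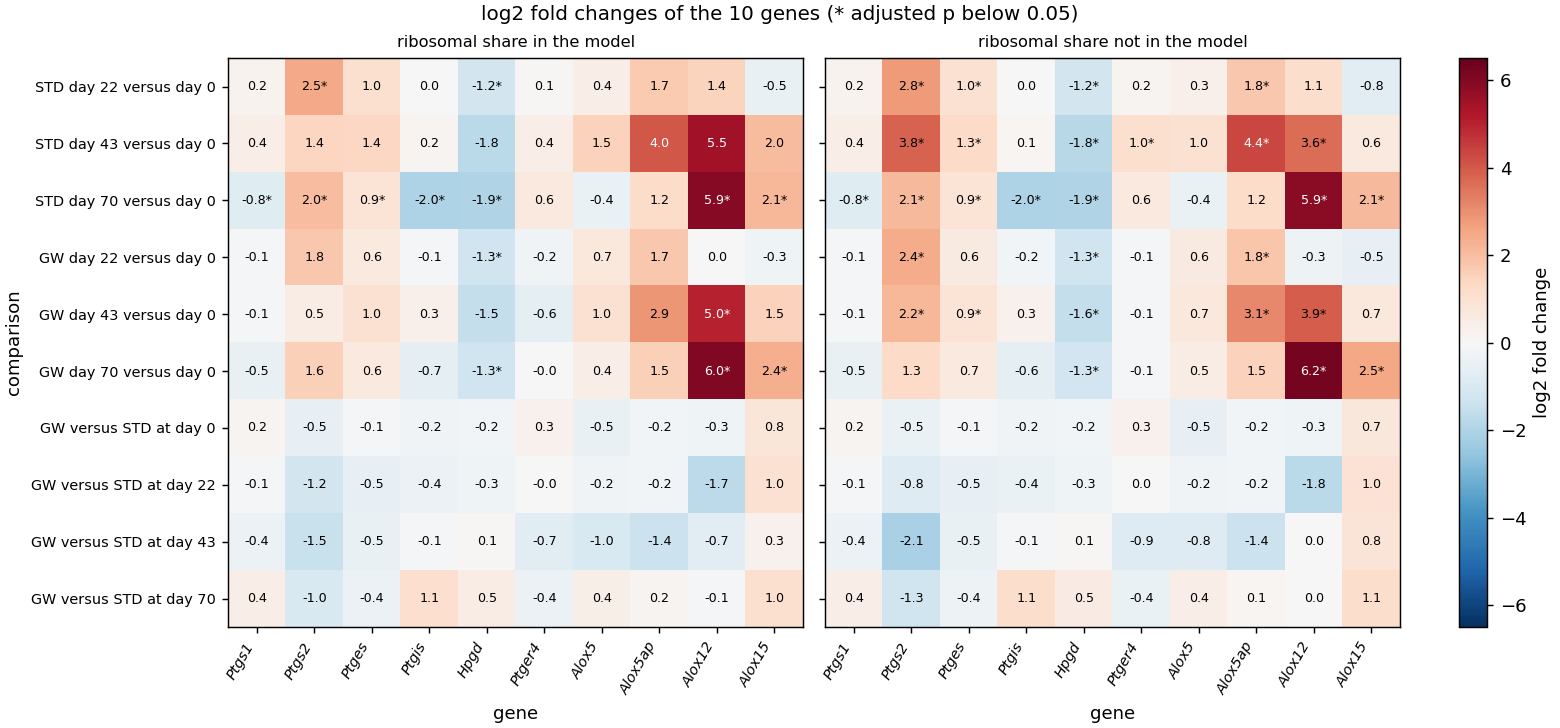
Log2 fold changes of the 10 genes (columns) in 10 comparisons (rows), with the ribosomal share in the model on the left and without it on the right; STD is the standard diet, GW the GW3965 diet, and a star marks an edgeR adjusted p below 0.05. The panels show equal numbers of stars at day 70 (7 and 3), fewer on the left at day 22 (2 and 1 against 4 and 3) and far fewer on the left at day 43 (0 and 1 against 6 and 5), and no star appears in the 4 rows that compare the diets.

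*Ptgs2* (chr1:150100031-150108227, GRCm38), the inducible cyclooxygenase, was low and even in untreated colon. Its day 0 values on the standard diet were 6.41, 5.52, 8.21 and 6.04 CPM. They were 5.11, 19.9 and 109 CPM at day 22, 72.1, 76.8 and 132 CPM at day 43, and 15.9, 47.2 and 21.7 CPM at day 70. Of the 3 day 22 samples, replicate 1 lay just below the day 0 range and replicate 3 far above it, while all day 43 and day 70 samples were above every day 0 sample. The log2 fold change was 2.47 ± 0.69 (SE) at day 22 (edgeR adjusted p = 0.032) and 2.03 ± 0.67 at day 70 (adjusted p = 0.024). At day 43 it was 1.41 ± 1.43 with the ribosomal term (adjusted p = 0.93) and 3.84 ± 0.74 without it (adjusted p = 0.00019). The day 22 call was lost without replicate 3, where the log2 fold change was 0.29, and without any 1 of the 4 day 0 samples, with adjusted p from 0.0047 to 0.87 over the 7 fits that each left out 1 sample. At day 70 it was lost without day 70 replicate 2 or day 0 replicate 2 of 22 diet days, with adjusted p up to 0.13. Neutrophil markers, given with *Alox5ap*, summed to 41.1, 390 and 595 CPM in day 22 replicates 1, 2 and 3, in the order of *Ptgs2*. The orders also matched at GW3965 day 22 and standard-diet day 70. They differed at day 43 on both diets and at GW3965 day 70, where replicate 1 had 1059 CPM of these markers and the lowest *Ptgs2* of the 26 samples, 2.87 CPM. Over the 26 samples *Ptgs2* was related at r of 0.75 to neutrophil, 0.70 to mast cell, and 0.68 to macrophage and to eosinophil markers. The part of these cells in the result was not tested.

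On GW3965, *Ptgs2* measured 3.59, 4.85, 3.22 and 7.51 CPM at day 0, then 19, 10.9 and 45.8 CPM at day 22, 23.7, 28.7 and 12.9 CPM at day 43, and 2.87, 15.8 and 15.5 CPM at day 70. All samples of days 22 and 43 were above day 0, and at day 70 replicate 1 was below every day 0 sample. With the ribosomal term no day passed the test (log2 fold changes of 1.76 ± 0.73, 0.47 ± 1.07 and 1.57 ± 0.69 (SE), edgeR adjusted p = 0.12, 0.91 and 0.11). Without it, day 22 (2.40 ± 0.71, adjusted p = 0.021) and day 43 (2.18 ± 0.71, adjusted p = 0.016) did. The GW3965 samples at day 43 were all below the standard-diet samples of that day. At day 70 they were below by a slight margin in CPM, with the highest at 15.8 against 15.88. In TPM the day 70 groups overlapped, with these same samples at 5.03 on GW3965 and 4.81 on the standard diet. The diet difference was -1.45 ± 0.82 at day 43 (edgeR adjusted p = 0.63), or -2.11 ± 0.76 without the ribosomal term (adjusted p = 0.21), and -0.97 ± 0.73 at day 70 (adjusted p = 0.49), so neither passed the test. Between the diets, the groups of 10.9% of all genes did not overlap at day 43, and those of 19.1% at day 70.

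*Ptgs1* (chr2:36230426-36252272), the constitutive cyclooxygenase, moved less. Standard-diet values were 19.1, 32.1, 24 and 21.1 CPM at day 0 and 14.1, 16 and 12.2 CPM at day 70, which is below every day 0 sample. *Ptgs1* fell, at a log2 fold change of -0.77 ± 0.25 (SE, edgeR adjusted p = 0.022), and the call was lost without day 70 replicate 1 or 3 or without day 0 replicate 2 of 22 diet days (adjusted p up to 0.087). On GW3965, the day 70 values of 27.4, 16.7 and 13.5 CPM overlapped the day 0 range of 19.3 to 32.8 CPM, at -0.50 ± 0.25 (adjusted p = 0.17). At days 22 and 43 no call was made on either diet, with group means of 24.8 to 32.3 CPM. The Pearson r of log2 CPM between *Ptgs1* and *Ptgs2* over the 26 samples was -0.01.

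*Ptges* (chr2:30889471-30929863) encodes the inducible synthase that makes prostaglandin E2 from the cyclooxygenase product. Its standard-diet values were 11.6, 12.8, 11.6 and 9.96 CPM at day 0, 15.4, 23.5 and 30.6 CPM at day 22, 10.3, 44.5 and 27.9 CPM at day 43, and 23.4, 23.7 and 16 CPM at day 70. Days 22 and 70 lay above day 0 in every sample, and at day 43 replicate 1, the library of RNA integrity number 2.6, lay within the day 0 range. *Ptges* rose at day 70, with a log2 fold change of 0.87 ± 0.32 (SE, edgeR adjusted p = 0.041), close to the threshold: the call was lost in 6 of 7 fits that left out 1 sample, with adjusted p up to 0.13, and was kept without day 70 replicate 3. At day 22 it was 1.03 ± 0.33 (adjusted p = 0.063), or 1.01 ± 0.31 without the ribosomal term (adjusted p = 0.044). On GW3965 the values were 9.22 to 13.9 CPM at day 0, 14.9 to 18 CPM at day 22, 15.7 to 22.9 CPM at day 43 and 15.4 to 17.3 CPM at day 70. No group overlapped day 0, but no day was called with the ribosomal term (log2 fold changes 0.63, 0.99 and 0.64, edgeR adjusted p = 0.25, 0.45 and 0.18), and only day 43 was called without it (0.91 ± 0.31, adjusted p = 0.022). In TPM, day 43 measured 2.64 to 10.1 on the standard diet and 5.12 to 7.42 on GW3965. These overlapped the day 0 ranges of 5.44 to 8.03 and 4.04 to 7.87. The TPM means were 6.48 against 6.47 on the standard diet and 6.15 against 5.29 on GW3965.

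*Ptgis* (chr2:167191805-167240604), the prostacyclin synthase of vessel walls and stroma, fell at day 70 on the standard diet. It measured 20.5, 32.6, 20.1 and 15.9 CPM at day 0 and 5.10, 6.57 and 4.99 CPM at day 70, so the highest day 70 sample was below a value of 15.9 CPM, the lowest at day 0. Its log2 fold change was -2.0 ± 0.44 (SE, edgeR adjusted p = 0.0021), and it stayed past the threshold in all 7 fits that left out 1 sample (adjusted p up to 0.013). On GW3965 the day 70 values were 20.6, 7.11 and 8.83 CPM against 11.3 to 23.5 CPM at day 0, with 1 sample inside the day 0 range and 2 below it, and the log2 fold change was -0.65 ± 0.43 (adjusted p = 0.30). Every GW3965 sample of day 70 was above every standard-diet sample of that day. The difference of 1.12 ± 0.46 had an unadjusted p of 0.025 and an edgeR adjusted p of 0.20, and the diet effect at day 70 minus that at day 0, 1.35 ± 0.60, had an adjusted p of 0.36. At days 22 and 43 no call was made, and the 6 samples of each day spanned 13.2 to 39.0 and 14.5 to 34.3 CPM. Smooth muscle markers (*Myh11*, *Acta2*, *Actg2*, *Cnn1* and *Des*) summed to 5846 to 16530 CPM in standard-diet day 0 samples and to 1191 to 2544 CPM at day 70, and to 3825 to 9813 and 2085 to 5731 CPM on GW3965. On the standard diet, endothelial markers, listed with *Hpgd*, summed to 105 to 189 CPM at day 0 and 102 to 159 CPM at day 70. Fibroblast markers (*Col1a1*, *Col1a2*, *Pdgfra*, *Dpt* and *Lum*) summed to 517 to 1058 and 548 to 1091 CPM. On GW3965 endothelial sums were 139 to 154 and 172 to 416 CPM, and fibroblast sums 458 to 733 and 734 to 1506 CPM. *Ptgis* was related at r of 0.74 to smooth muscle, 0.37 to fibroblast and -0.004 to endothelial markers. The part of these cells in the *Ptgis* result was not tested.

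*Hpgd* (chr8:56294585-56321043), whose product breaks down prostaglandin E2, was lower in colon of AOM–DSS mice on both diets. Values on the standard diet were 263, 176, 133 and 171 CPM at day 0, 120, 58.7 and 67.5 CPM at day 22, 76.8, 45.1 and 37.4 CPM at day 43, and 35.4, 39.0 and 69.9 CPM at day 70. On GW3965 it measured 201, 145, 155 and 161 CPM at day 0, 56.4, 69.2 and 75.6 CPM at day 22, 41.7, 66.0 and 59.2 CPM at day 43, and 105, 45.8 and 55.5 CPM at day 70. All 18 samples from AOM–DSS mice were below all 8 day 0 samples.

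For *Hpgd* on the standard diet the log2 fold change was -1.17 ± 0.35 (SE) at day 22 (edgeR adjusted p = 0.044), -1.76 ± 0.70 at day 43 (adjusted p = 0.47; -1.80 ± 0.34 and 0.00018 without the ribosomal term) and -1.95 ± 0.35 at day 70 (adjusted p = 0.00052). On GW3965 it was -1.29 ± 0.37 at day 22 (adjusted p = 0.025), -1.54 ± 0.57 at day 43 (adjusted p = 0.21; -1.57 ± 0.34 and 0.00092 without the term) and -1.27 ± 0.35 at day 70 (adjusted p = 0.015). Day 43 estimates were thus nearly equal in both models, and their errors differed. The standard-diet day 22 call was lost without day 22 replicate 2 or 3 or without 3 of the 4 day 0 samples (both of 22 diet days and replicate 2 of 43), with adjusted p up to 0.19. On GW3965 it was lost at day 22 without day 22 replicate 1 or 2 or day 0 replicate 1 of 22 diet days (adjusted p up to 0.14), and at day 70 without replicate 2 or 3 (up to 0.072). The standard-diet call at day 70 was kept in all 7 such fits. Colonocyte markers (*Car1*, *Car4*, *Slc26a3*, *Aqp8* and *Krt20*) summed to 1879 to 4633 CPM at day 0 and to 145 to 1149 CPM at day 70. *Krt20* alone overlapped its day 0 range at day 70, at 257 to 989 against 251 to 625 CPM on the standard diet and 103 to 584 against 188 to 614 CPM on GW3965. Over the 26 samples, which share days and cages, *Hpgd* was related at r = 0.66 to the log2 sum of the colonocyte list, 0.63 to that of smooth muscle and -0.85 to that of neutrophils. GW3965 day 70 replicate 1 had the lowest colonocyte sum, 145 CPM, and the highest *Hpgd* of its day, 105 CPM. That sample also had the lowest sum of colon markers among the 26, 1002 CPM, and the highest of endothelial markers (*Pecam1*, *Cdh5*, *Kdr* and *Vwf*), 416 CPM. The day 70 values of 2.87 CPM for *Ptgs2* and 20.6 CPM for *Ptgis* are from it as well. The part of the cell mixture in the result was not tested.

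*Ptger4* (chr15:5206661-5244187), a receptor for prostaglandin E2 that raises cyclic AMP, was called on no day with the ribosomal term. It measured 17.5 to 25.9 CPM at day 0 on the standard diet, 22.6 to 26.9 CPM at day 22, and 34.1, 32.0 and 34.0 CPM at day 70, above all day 0 samples. The log2 fold change of 0.62 ± 0.29 (SE) at day 70 had an unadjusted p of 0.041 and an edgeR adjusted p of 0.099. At day 43 the values were 73.4, 27.2 and 30.2 CPM, the first in the library of RNA integrity number 2.6. Without the ribosomal term this gave 1.02 ± 0.29 (adjusted p = 0.0050), and without the term and that library 0.41 (adjusted p = 0.17). On GW3965 no day was called, and the 13 samples spanned 15 to 36.5 CPM. *Ptger4* overlaps *Ttc33* on the opposite strand (25.3 CPM on average), and whether the counting used strand is not given in the sources used here.

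**Figure D2:**
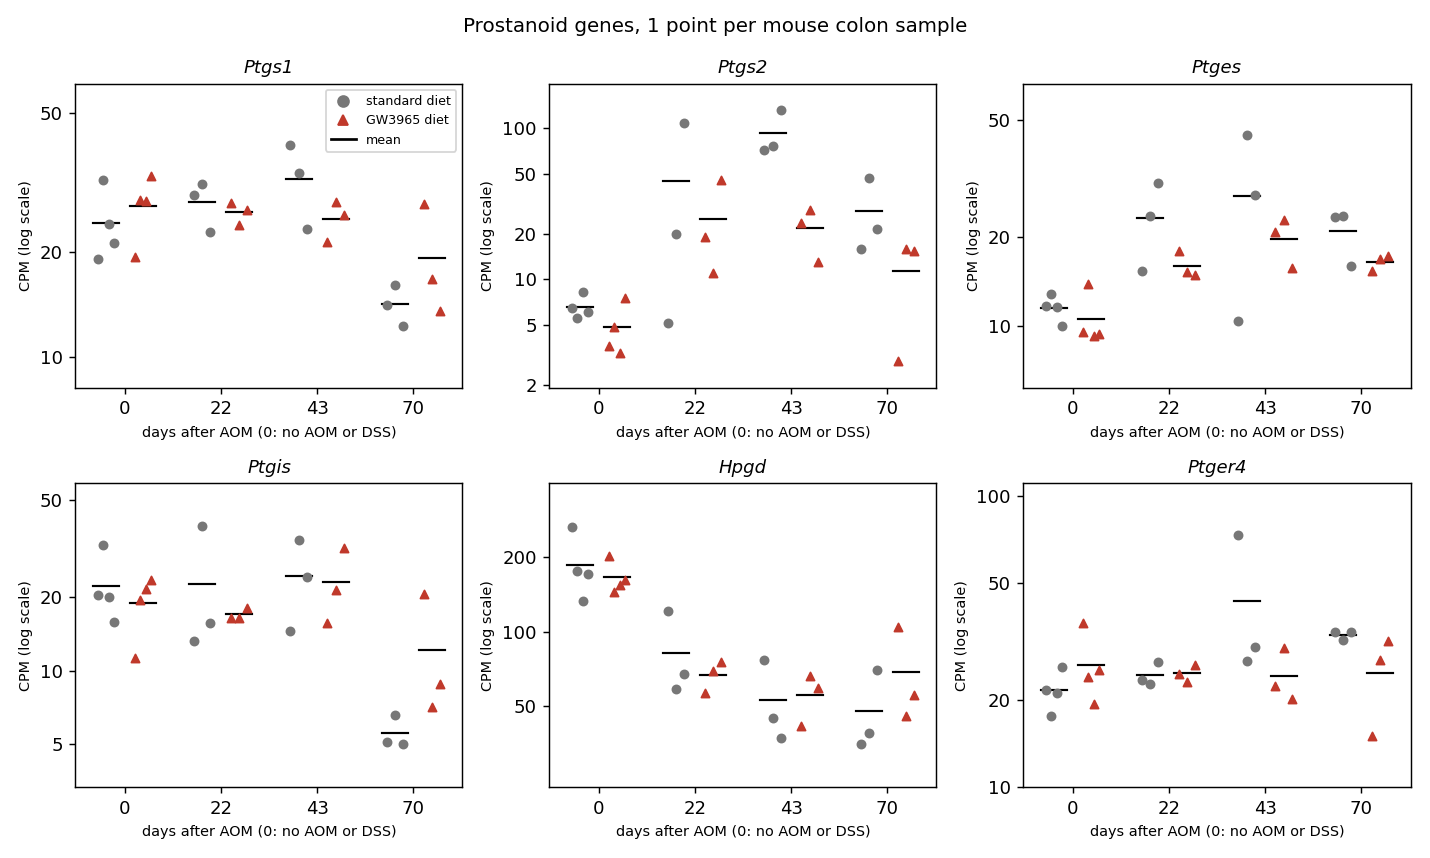
CPM (log scale) of the 6 prostanoid genes in each of 26 samples by day after AOM, with circles for the standard diet, triangles for GW3965 and a bar at the mean of each group; day 0 is untreated colon. *Hpgd* is below its 8 day 0 samples in all 18 later ones, *Ptgs2* on the standard diet is highest at day 43 with 72.1 to 132 CPM, and *Ptgis* on the standard diet drops to 4.99 to 6.57 CPM at day 70.

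The ratio of *Ptgs2* to *Hpgd*, the inducible synthesis step over the breakdown step, joins the opposite moves of both genes within a sample. It is given as log2 of the ratio of TPM, with 0.1 added to each, and without a test. In standard-diet samples it was -6.83 to -5.50 at day 0, then -5.99, -3.07 and -0.84 at day 22, -1.64, -0.77 and 0.27 at day 43, and -2.67, -1.27 and -3.22 at day 70. In 1 day 43 sample the TPM of *Ptgs2* thus exceeded that of *Hpgd*, and in all other samples it was lower. On GW3965 it was -7.21 to -5.90 at day 0, -4.16 to -2.26 at day 22, -3.69 to -2.33 at day 43, and -6.59, -3.06 and -3.36 at day 70. All 3 GW3965 samples at day 43 were below the lowest standard-diet sample of that day, and GW3965 day 70 replicate 1 lay in its own day 0 range. *Ptgs2* relative to *Ptgs1* ran from -3.75 to -2.32 at day 0 over both diets and from 0.10 to 1.48 at day 43 on the standard diet, the only group with *Ptgs2* above *Ptgs1* in every sample, against -1.85 to -0.65 on GW3965. The standard-diet samples of day 43 had RNA integrity numbers of 2.6, 8.4 and 7.8, and *Ptgs2* was not called between the diets at that day.

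**Figure D3:**
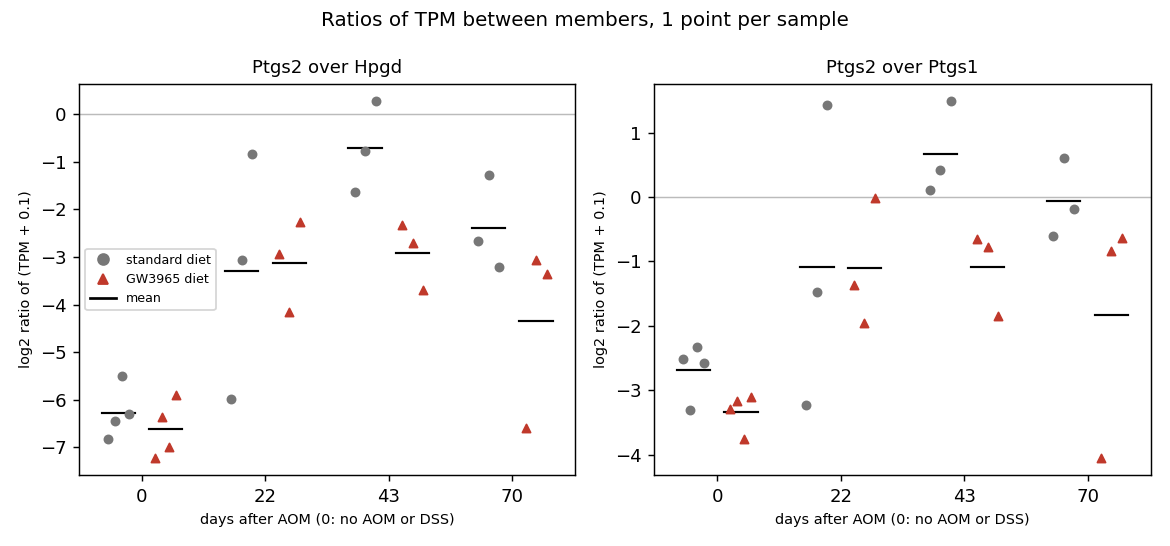
Log2 ratio of TPM (0.1 added) of *Ptgs2* to *Hpgd* on the left and of *Ptgs2* to *Ptgs1* on the right, 1 point per sample, by day and diet, with bars at group means and a grey line at equal levels. Day 0 samples lie at -5.50 or lower on the left, standard-diet day 43 samples are the highest group in both panels, and 1 GW3965 sample of day 70 falls at -6.59.

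*Alox12* (chr11:70241457-70255353), the lipoxygenase of platelets that skin also makes, showed the highest fold changes among the 10. On the standard diet it measured 1.23, 1.32, 1.23 and 1.34 CPM at day 0, 1.40, 3.26 and 3.77 CPM at day 22, 24.4, 12.5 and 9.92 CPM at day 43, and 80.5, 62.7 and 83.4 CPM at day 70. On GW3965 it measured 0.933, 1.47, 0.971 and 0.746 CPM at day 0, 0.802, 1.02 and 0.634 CPM at day 22, 23.6, 2.64 and 21.9 CPM at day 43, and 89.7, 9.13 and 134 CPM at day 70. Samples of days 43 and 70 were above all day 0 samples on both diets, and 1 GW3965 sample at each of these days was several-fold below the other 2.

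The log2 fold change of *Alox12* at day 70 was 5.91 ± 0.70 (SE) on the standard diet (edgeR adjusted p = 2.8e-05) and 6.03 ± 0.72 on GW3965 (adjusted p = 3.1e-05), and both calls were kept in each of the 7 fits that left out 1 sample. At day 43 it was 5.46 ± 1.54 on the standard diet (adjusted p = 0.24) and 5.01 ± 1.01 on GW3965 (adjusted p = 0.017), or 3.61 ± 0.66 and 3.95 ± 0.67 without the ribosomal term (adjusted p = 0.00012 for each). The GW3965 call at day 43 with the term was lost without day 43 replicate 2 or 3 or without day 0 replicate 2 of 43 diet days, which is the sample with conflicting labels (adjusted p up to 0.17). At day 22 no call was made on either diet (log2 fold changes 1.44 and 0.02). The standard-diet samples of day 22 were all above the GW3965 samples, at -1.68 ± 0.75 for GW3965 against the standard diet, with an unadjusted p of 0.037 and an edgeR adjusted p of 0.45, where 23.6% of all genes did not overlap.

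Markers of stratified epithelium, which the colon lining does not normally form (*Krt5*, *Krt14*, *Krt1*, *Krt10*, *Trp63* and *Dsg3*), moved with *Alox12*. Their sum was 6.04 to 9.82 CPM at day 0, 156 to 845 and 106 to 2088 CPM at day 43 on the standard and GW3965 diets, and 1813 to 2605 CPM at day 70 on the standard diet. On GW3965 it was 18201, 4.53 and 8393 CPM at day 70. None of the 6 markers was at 0 over all samples of any group. In GW3965 day 70 replicate 2, which had this sum at the day 0 level, *Alox12* was 9.13 CPM, above the highest day 0 value of 1.47 CPM. Platelet markers (*Itga2b*, *Gp1bb*, *Gp9* and *Pf4*) summed to 8.94 to 24.2 CPM at day 0, 23 to 60.3 CPM at day 43 and 8.21 to 19.1 CPM at day 70, with *Pf4* the larger part of the sum at day 0. *Gp1bb* alone went from 0 to 0.518 CPM at day 0 to 1.44 to 6.40 CPM at day 70. Of the 3 platelet genes tested, 1 was called higher at day 70 on the standard diet and 2 on GW3965. Of all genes, 33.2% and 21.8% were called in either direction. On GW3965 the groups of all 3 did not overlap day 0, beside 31.4% of all genes. *Pf4* was lower there, at 4.71 to 7.06 CPM against 7.97 to 11.4 CPM at day 0. The Pearson r of log2 values of *Alox12* over the 26 samples, which share days and cages, was 0.93 with the stratified list and 0.24 with the platelet list. The part of these cells in the result was not tested. The 3 genes most like *Alox12* among all 17063 were *Ajuba* (r = 0.97), *Wnt7b* (0.96) and *Lgr6* (0.95).

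*Alox15* (chr11:70344152-70352031), the leukocyte-type lipoxygenase, was low until day 70 on the standard diet. Standard-diet samples measured 0.894 to 4.01 CPM at day 0, 0.860 to 2.34 CPM at day 22, 2.79 to 4.60 CPM at day 43, and 10.6, 9.23 and 10.9 CPM at day 70. The log2 fold change of 2.14 ± 0.63 (SE) at day 70 (edgeR adjusted p = 0.013) was kept in all 7 fits that left out 1 sample. On GW3965 it measured 3.08 to 4.72 CPM at day 0, 2.08 to 3.95 CPM at day 22, 5.11, 2.50 and 11.8 CPM at day 43, and 6.96, 6.00 and 54.3 CPM at day 70. All day 70 samples were above day 0, and replicate 3 was far above the other 2. The call there, 2.38 ± 0.63 (edgeR adjusted p = 0.010), rested on replicate 3: without it the log2 fold change was 0.31 (adjusted p = 0.72). Eosinophil markers (*Siglecf*, *Ccr3*, *Prg2* and *Epx*) summed to 3.36 CPM in that sample and 2.66 to 4.83 CPM in all 3, against 0.547 to 1.28 CPM at day 0 on GW3965. The groups of all 3 eosinophil genes tested did not overlap there, beside 31.4% of all genes, and 2 were called higher, beside 21.8%. On the standard diet none was called, beside 33.2% of all genes (1.14 to 1.83 CPM at day 70 against 0.754 to 3.83 CPM). The stratified list stood at 8393 CPM in replicate 3 and the tuft cell list (*Dclk1*, *Trpm5*, *Pou2f3*, *Avil*, *Sh2d6* and *Il25*) at 44.8 CPM, its highest value. The tuft cell list was at 12.9 to 18.2 CPM at day 0 on both diets and at 35.4 to 39.3 CPM at day 70 on the standard diet. Over the 26 samples *Alox15* was related at r of 0.69 to the stratified list, 0.56 to the tuft cell list and -0.08 to the eosinophil list. The part of these cells in the result was not tested. Days 22 and 43 were not called in either model.

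*Alox5ap* (chr5:149264767-149288153), the membrane protein that presents arachidonic acid to the *Alox5* enzyme in myeloid cells, was highest at day 43. It measured 6.36, 7.65, 7.92 and 6.14 CPM at day 0 on the standard diet, 7.84, 33.2 and 31.1 CPM at day 22, 38.4, 305 and 90.2 CPM at day 43, and 10.9, 25.1 and 11.6 CPM at day 70. On GW3965 it measured 4.86, 6.41, 7.15 and 6.16 CPM at day 0, 26.6, 16 and 22.0 CPM at day 22, 80.5, 55.3 and 26.4 CPM at day 43, and 15.1, 11.6 and 24.9 CPM at day 70. All but 1 of the 18 AOM–DSS samples, standard-diet day 22 replicate 1, were above all 8 day 0 samples.

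With the ribosomal term no day was called for *Alox5ap*, at log2 fold changes of 1.71 ± 0.58 (SE), 4.05 ± 1.12 and 1.17 ± 0.55 on the standard diet (edgeR adjusted p = 0.076, 0.23 and 0.11) and 1.74 ± 0.58, 2.87 ± 0.93 and 1.53 ± 0.57 on GW3965 (adjusted p = 0.055, 0.15 and 0.058). Without it, day 22 was called on both diets (1.78 ± 0.53 and 1.81 ± 0.54, adjusted p = 0.038 and 0.021), and so was day 43 (4.36 ± 0.57 and 3.13 ± 0.55, adjusted p = 4.7e-06 and 0.00016). Day 70 was called in neither model. Neutrophil markers (*S100a8*, *S100a9*, *Cxcr2*, *Csf3r*, *Retnlg* and *Mmp8*) summed to 1.74 to 6.98 CPM at day 0, 2306 to 12690 CPM at day 43 on the standard diet and 700 to 3006 CPM on GW3965, and the sample with 305 CPM of *Alox5ap* had the highest sum. The r of log2 values with *Alox5ap* was 0.89 over the 26 samples, and with macrophage markers it was 0.90. The 3 genes most like *Alox5ap* were *Trem3* (r = 0.96), *Mcemp1* (0.96) and *Stfa2l1* (0.95). The part of these cells in the result was not tested.

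*Alox5* (chr6:116410077-116461178), the leukotriene-forming lipoxygenase itself, was low throughout. Its 26 values ran from 1.30 to 9.37 CPM, or 20 to 175 estimated counts. Standard-diet samples measured 2.00 to 3.49 CPM at day 0, 1.40, 4.03 and 4.50 CPM at day 22, 1.30, 9.37 and 5.20 CPM at day 43, and 1.31 to 2.96 CPM at day 70. On GW3965 it measured 1.62 to 2.21 CPM at day 0, 2.54 to 2.94 CPM at day 22, 1.35 to 4.76 CPM at day 43 and 1.51 to 4.66 CPM at day 70. No comparison called it in either model, the log2 fold changes with the ribosomal term lay between -0.42 and 1.48 against day 0, and their SEs of 0.56 to 1.19 leave changes of this size unresolved.

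**Figure D4:**
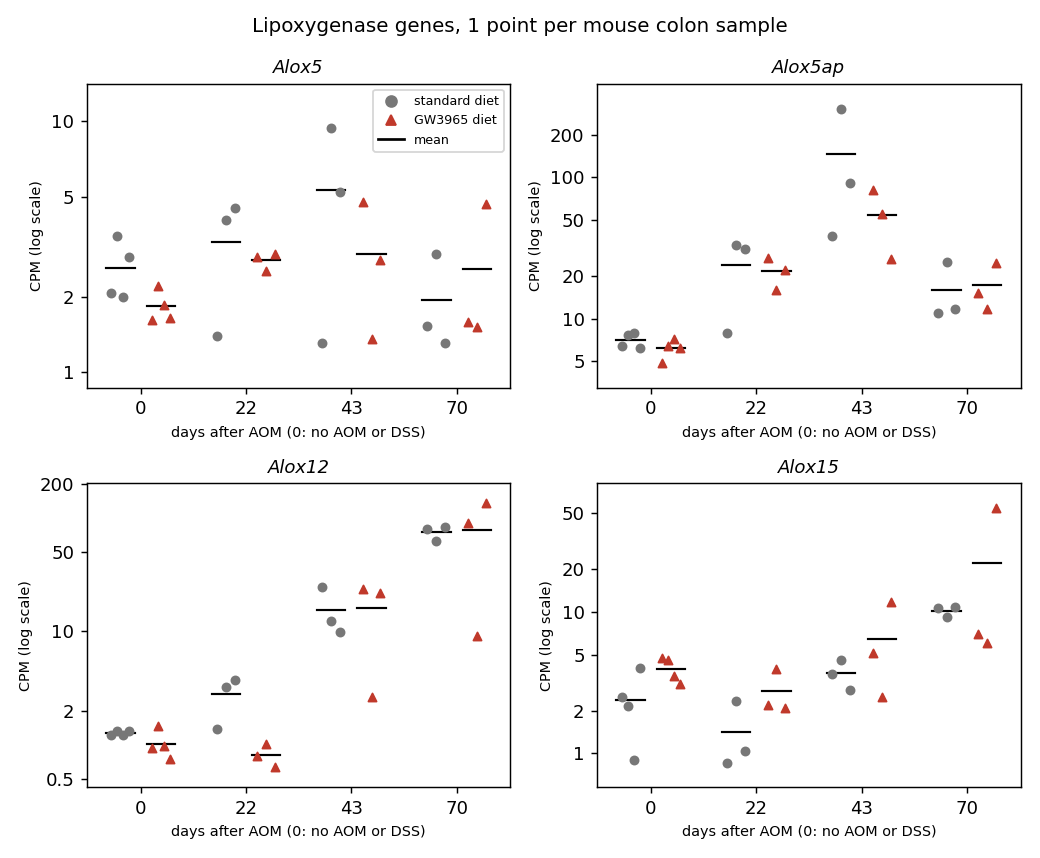
CPM (log scale) of the 4 lipoxygenase genes in each of 26 samples by day and diet, with bars at group means. *Alox12* climbs from 0.746 to 1.47 CPM at day 0 to 9.13 to 134 CPM at day 70, *Alox5ap* is highest at day 43, *Alox5* stays between 1.30 and 9.37 CPM, and a single GW3965 sample stands at 54.3 CPM of *Alox15*.

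**Figure D5:**
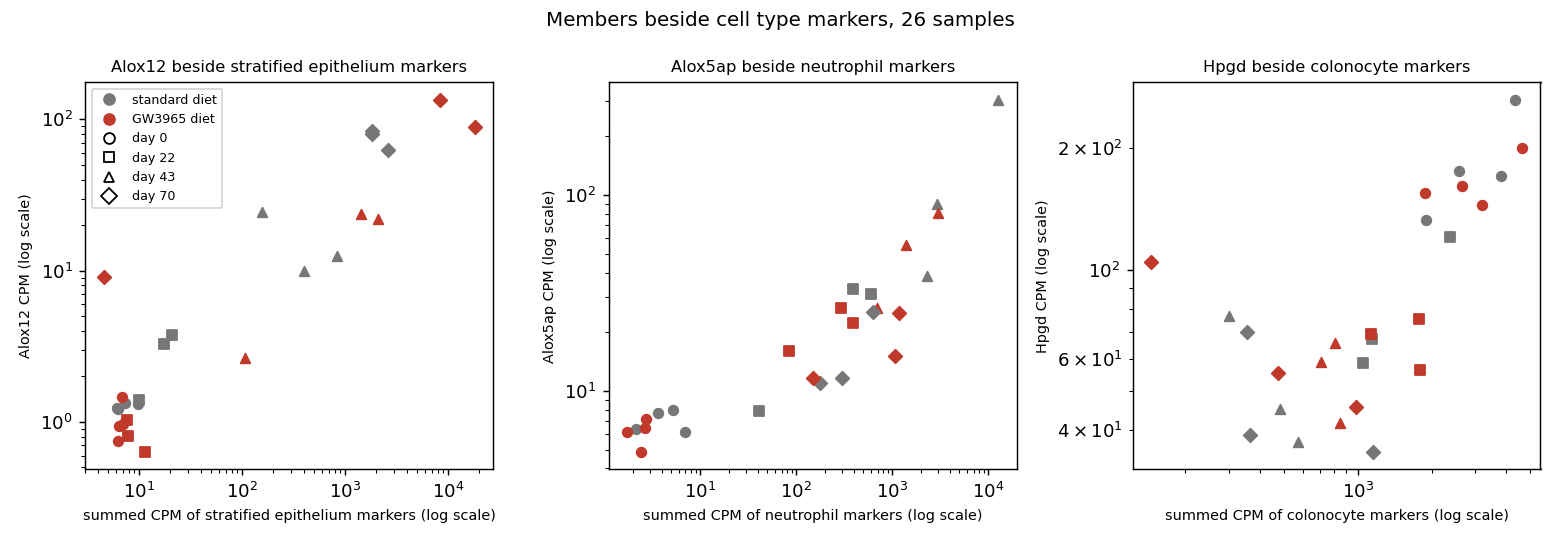
CPM of 3 members against the summed CPM of a marker list, both on log scales, with colour for diet and shape for day; *Alox12* is set beside stratified epithelium, *Alox5ap* beside neutrophils and *Hpgd* beside colonocytes. *Alox12* and *Alox5ap* go up with their lists (r of 0.93 and 0.89 on log2 values), and 1 GW3965 sample of day 70 has *Alox12* at 9.13 CPM with the stratified list at 4.53 CPM.

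Between the diets, none of the 10 was called at day 0, 22, 43 or 70, beside 0.0293%, 0.135%, 0.0293% and 1.83% of all genes, nor without the ribosomal term, beside 0.0293%, 0.0762%, 0.105% and 3.07%. The groups of 0, 1, 1 and 3 members did not overlap, beside 2.29%, 23.6%, 10.9% and 19.1% of all genes. The unadjusted p was below 0.05 for 0, 1, 1 and 1 members, beside 1.94%, 9.96%, 8.65% and 18.8% of all genes, and DESeq2 called none either, beside 0.158%, 1.75%, 0.399% and 6.86%. At day 0 the differences for GW3965 against the standard diet lay between -0.51 (*Ptgs2*, SE 0.63) and 0.79 (*Alox15*, SE 0.59) on the log2 scale. At day 43 the difference of *Alox5ap* was -1.37 ± 0.60 (SE), with an unadjusted p of 0.034 and an edgeR adjusted p of 0.54. With SEs of 0.26 to 0.84 at the later days, differences of this order could be missed, and a diet effect is neither shown nor shown to be absent. The diet effect at a later day minus that at day 0 was also called for no member, beside 0.0234%, 0% and 0% of all genes at days 22, 43 and 70. An unadjusted p below 0.05 was reached by *Ptger4* at day 43 (-0.97 ± 0.44) and *Ptgis* at day 70 alone, beside 6.24%, 4.37% and 12.7% of all genes at the 3 days.

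The 10 genes did not move as 1 block. Over the 26 samples *Ptgs2*, *Ptges* and *Alox5ap* were related to one another at r of 0.70 to 0.80 in log2 CPM, and each was related to *Hpgd* at r of -0.78 to -0.72. *Ptgs1* and *Ptgis* formed another pair (r = 0.80), and *Alox12* and *Alox15* another (r = 0.73). These values describe samples that share days, diets and cages. The genes closest to *Ptgs2* were *Il6*, a cytokine of inflammation (r = 0.92), *Olr1* (0.90) and *Gm7514* (0.90), and those closest to *Ptges* were *Igfbp4* (0.89), *Arid5a* (0.89) and *Cebpb* (0.89). For *Hpgd* they were *Retreg1* (0.93), *Fam189a2* (0.93) and *Cyp3a13* (0.91), and for *Ptgis* *Pnck* (0.96), *Islr* (0.95) and *Srpx* (0.95). *Ptgs1* was closest to *Lrch2* (0.91), *Slc18a2* (0.89) and *Ccdc88a* (0.89), and *Ptger4* to *Slbp* (0.91), *Hnrnpc* (0.90) and *Nudcd1* (0.89). The nearest genes of *Alox15* (*Zfp428*, *Pak6* and *Cyp2a5*, 0.80 to 0.82) and of *Alox5* (*Gm13889*, *Ppp1r3d* and *Gm45551*, 0.78 to 0.79) were less close.

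Each of *Ptgs2* and *Hpgd* was carried by 1 transcript, *Ptgs2-201* and *Hpgd-201*, with 99.9 to 100% of the estimated counts in every group mean. *Alox12* was split between 2 coding transcripts, with *Alox12-201* at 78.3 ± 1.8% (SD, n = 3) at day 70 on the standard diet and at 73.9 ± 11.2% on GW3965. *Ptgis-201* held 58.3 ± 8.6% (SD, n = 4) of *Ptgis* at day 0 on the standard diet and 68.9 ± 19.9% (SD, n = 3) at day 70. These shares are estimates of how reads divide between transcripts and were not tested.

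Beyond the 10, 44 of 47 further genes of arachidonic acid release, prostanoid and leukotriene handling and their receptors were tested. With the standard diet 5 were higher and 0 lower at day 22 (11.4% of the 44 called, beside 7.73% of all genes), and 11 were higher and 7 lower at day 70 (40.9% beside 33.2%). On GW3965 6 were higher and 1 lower at day 22 (15.9% beside 12.6%), and 15 were higher and 4 lower at day 70 (43.2% beside 21.8%). At day 43 none was called with the ribosomal term, and without it 21 were higher and 5 lower on the standard diet (59.1% beside 55.1%) and 14 higher and 3 lower on GW3965 (38.6% beside 45.3%). By group, with the members counted, 0 of 8 prostanoid receptors were higher and 4 lower at day 70 on the standard diet, and 4 of 7 lipoxygenase genes were higher and 0 lower, beside 33.2% of all genes called in either direction. On GW3965 at day 70, 1 receptor was higher and 1 lower, and 5 lipoxygenase genes were higher and 0 lower, beside 21.8%. The lists of receptors and lipoxygenases hold 1 and 4 of the 10 members, so these counts are not apart from those of the members.

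*Pla2g2a*, a secreted phospholipase, was first by p at day 70 on both diets, with log2 fold changes of 6.70 (edgeR adjusted p = 2.3e-05) on the standard diet and 6.55 (adjusted p = 3.5e-05) on GW3965. On the standard diet at day 70, *Ptgr1*, a prostaglandin reductase (1.16), *Abcc4*, a prostaglandin exporter (1.85), and *Pla2g12a*, another phospholipase (1.37), rose, and *Dpep1*, a leukotriene peptidase (-1.75), and the prostaglandin E2 receptor *Ptger3* (-1.90) fell. On GW3965 at day 70 the leukotriene B4 receptors *Ltb4r1* (3.36) and *Ltb4r2* (3.69), *Pla2g12a* (1.39) and the lipoxygenase *Alox12e* (4.89) rose, and *Cbr1*, a carbonyl reductase, fell (-1.09). At day 22 the called genes on the standard diet were *Ggt5* (1.44), *Dpep2* (1.77), the formyl peptide receptor *Fpr2* (4.37), *Ltb4r1* (2.13) and *Pla2g2a* (2.30). Those with the smallest p on GW3965 at day 22 were *Pla2g2a* (5.27), *Pla2g4c* (3.03), *Fpr2* (4.12), *Tbxas1* (1.27), *Cysltr2* (1.82) and *Dpep2* (1.27). Between the diets at day 70, *Ggt5*, which trims leukotriene C4, was higher on GW3965 (1.66, edgeR adjusted p = 0.025). Without the ribosomal term its call was lost (1.38, edgeR adjusted p = 0.053). *Ptgdr*, a prostaglandin D2 receptor, was higher as well (3.82, edgeR adjusted p = 0.048), close to the threshold. Of all genes, 1.83% were called in this comparison. Dependence of the *Ggt5* and *Ptgdr* calls on single samples was not followed.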

How the data were processed

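RNA was taken from distal colon in 26 samples, enriched for polyadenylated RNA and sequenced as paired ends. Per the study's methods and the labels, the authors quantified reads with kallisto against GRCm38 cDNA (version and Ensembl release not given in the sources used here) and deposited, for each sample, estimated counts and TPM values per transcript. Here the deposited estimated counts were summed over the transcripts of each gene. Of 119414 transcripts, 97.8% matched the annotation and gave 35975 genes, and unmatched transcripts held 0.615 to 0.999% of a sample's counts. Sums were rounded to whole numbers, filtered with filterByExpr (17063 genes left), scaled by TMM and fitted in edgeR 4.0.16 (R 4.3.3) by glmQLFit and glmQLFTest, with the 8 diet-by-day groups and the ribosomal share (the percent of counts from 88 ribosomal protein genes) as terms. This percentage stands for the ribosomal percentage that the study's model names without a definition. Standard errors were the absolute log2 fold change divided by the root of the F value. P-values were adjusted over all genes tested. CPM values are estimated counts scaled to the TMM-corrected library size of the genes tested. Alternatives included DESeq2 1.42.0, and the fit was tested on simulated data.

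The members and gene lists were chosen with earlier results of these data known. Beside the members, the text names up to 6 genes of the wider pathway list with the smallest p among those called in a comparison, and the 3 genes with the highest correlation of log2 CPM (prior count 2) to each member. The labels give the samples as separate replicates, while the study's reporting form describes pools of 2 to 3 animals, so p-values measure the spread between samples, whichever these are. Replicate numbers do not pair them: over 13 same-numbered pairs of the diets, deviations from the group means correlated at -0.37 to 0.20, and 2 exceeded 0.1. No 2 samples agreed within sampling noise. With 3 or 4 samples a group and 18195345 to 41522204 counts a sample, precision was limited by the number of samples, and by counting as well where *Alox5*, *Alox12* and *Alox15* were low (down to 20, 14 and 16 estimated counts).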

Additional observations from a re-analysis of the deposited data

Results flagged for a closer look

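One value of the 10 genes stood apart from the other samples of its group. *Ptges* in untreated colon on GW3965, replicate 2 of 22 diet days, was 13.9 CPM, with the other 3 samples of its group at 9.22 to 9.53 CPM, a gap that exceeds the 95% limit of Dixon's test for 4 samples. This test covered 20 groups of 4 values, and chance gives about 1 such value in 20 groups. All GW3965 samples of days 22, 43 and 70 were above 13.9 CPM. No diet effect differed between days by its test for any of the 10 genes.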

How the results depend on the processing

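Counts of called members at days 22 and 43 depended on the model. Standard-diet day 22 gave 2, or 4 without the ribosomal term, with RNA integrity number in its place, with the DESeq2 Wald test, or without both the term and the library of RNA integrity number 2.6 (the last chosen after seeing the data), and 1 without the sample of conflicting labels. Standard-diet day 43 gave 0, or 6 without the term, with the integrity number, with only the groups compared, or without the term and that library, and 2 with DESeq2. GW3965 day 22 gave 1, or 3 without the term, 4 with the integrity number, with only the groups compared, or without the term and that library, and 2 with DESeq2. GW3965 day 43 gave 1, or 5 without the term, with only the groups compared, or without the term and that library, 6 with the integrity number, 2 with DESeq2 and 0 without the sample of conflicting labels. GW3965 day 70 gave 3, or 5 with the integrity number or without the term and that library. Standard-diet day 70 gave 7, and 6 to 9 under these alternatives, with 6 (*Ptges* lost) without a filter, with length-scaled TPM or without the sample of conflicting labels. Leaving out 1 sample at a time gave 0 to 4, 0 to 0 and 4 to 6 on the standard diet at days 22, 43 and 70, and 0 to 1, 0 to 1 and 1 to 5 on GW3965. The only reversal was *Ptger4* at standard-diet day 43, at -0.14 without day 43 replicate 1 and 0.93 without replicate 2. Diet comparisons and their changes between days gave 0 under every alternative. The cause was not tested.

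With the replicate number as a block, standard-diet day 22 gave 1 (*Hpgd*) and GW3965 day 70 gave 2, and 26 of 28 gene comparisons followed kept their side of the threshold. The numbers name samples and do not pair them. DESeq2 size factors changed none of the 28, and no filter or length-scaled TPM 1 each. Depth limits *Alox5*, *Alox12* and *Alox15* at day 0.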

Other observations

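*Alox5* differed in the kind of transcript its counts were assigned to. *Alox5-206*, annotated with a retained intron, held 27.9% of the estimated counts of *Alox5* on average at day 43 on the standard diet (20.2 to 38.6% in 3 samples) and 22.1% on GW3965 (0 to 38.7%), against 7.95% (0 to 17.8%) and 4.04% (0 to 16.2%) at day 0. The standard-diet samples of day 43 were all above those of day 0, and the GW3965 samples overlapped. RNA integrity numbers at day 43 were 2.6 to 9.3, against 9.1 or higher at the other days, and the ribosomal share was 10.0 to 18.6%, and their part in this was not tested. *Ptges-202* held 92.5 to 97.0% of *Ptges* and *Alox15-201* 93.4 to 100% of *Alox15* in the 8 group means. These shares rest on few counts for *Alox5* and *Alox15* and were not tested.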
